A study of Mus musculus with 8 samples.

Results

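The genes described here are 40 genes of DNA replication and the S phase of the cell cycle, chosen by name from the 24411 genes counted in each library. They comprise 5 genes of origin licensing, 12 of the replicative helicase, 12 of the DNA polymerases and the fork, 4 of nucleotide supply, and 7 of the E2F transcription factors and cyclin E. All 40 had enough counts to be tested, as 40 of the 12517 genes tested. Polyadenylated RNA of the mouse squamous cell carcinoma line A223 was sequenced in 4 groups of 2 libraries. These were PRDX6 knockdown (KD) cells and parental cells given 100 nM largazole for 18 h, then KD cells and parental cells in DMSO at 0 h. Largazole inhibits class I histone deacetylases. PRDX6 is a peroxiredoxin, an enzyme that reduces hydrogen peroxide and lipid hydroperoxides. The drug libraries also differ from the DMSO libraries in time, and KD cells are set against parental cells for which the labels name no construct. Whether replicates were grown separately is not stated, so each p-value reflects the spread among these libraries, which may be technical.

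Libraries held 13020492 to 15613216 estimated counts. The knockdown was visible in its target: Prdx6 measured 81.1 and 64.9 CPM in KD cells and 257 and 233 CPM in parental cells given largazole, against 86.6 and 79.2 CPM in KD cells and 297 and 283 CPM in parental cells kept in DMSO, where CPM is the count scaled to library size. The ribosomal RNA precursor Rn45s varied between libraries, at 742 to 23915 CPM for KD and 949.8 to 7739 CPM for parental cells given largazole, against 2549 to 9963 CPM for KD and 1212 to 1353 CPM for parental cells in DMSO. The 2 KD largazole libraries stood further apart than those of the other groups. The SD over genes of the log2 difference between replicates was 0.359 for KD and 0.218 for parental cells given largazole, against 0.207 for KD and 0.194 for parental cells in DMSO. A fit without 1 library leaves its group with a lone library, which is assumed to vary like the other groups. Such a fit without a KD largazole library therefore takes its spread from the tighter groups alone, and calls gained there are no support. Leaving the counts of Rn45s out changed the number of the 40 genes called in none of the 5 comparisons. Of 10 keratinocyte markers, Krt8 and Krt18 were abundant, and Krt5, Trp63, Krt6a and Krt17 averaged under 1 CPM in every group. Epcam was at 0 in both DMSO groups. The keratinocyte markers summed to 1521 to 1776 CPM for KD and 1331 to 1439 CPM for parental cells given largazole, against 2370.1 to 2468 CPM for KD and 2096 to 2232 CPM for parental cells in DMSO. Of the 6 tested, 5 rose with largazole in both genotypes, among them Krt14, Itgb4 and Epcam, and Krt8 fell in both. The summed level of 8 fibroblast markers was 4504 to 5140.2 CPM for KD and 3589 to 3655 CPM for parental cells given largazole, against 5166 to 5242 CPM for KD and 3610.2 to 3619.6 CPM for parental cells in DMSO, with Col1a1 and Col1a2 abundant and Lum at or near 0. The sum of 8 leukocyte markers was 42.7 to 49.3 CPM for KD and 62.8 to 63.9 CPM for parental cells given largazole, against 4.54 to 4.71 CPM for KD and 4.14 to 5.06 CPM for parental cells in DMSO, nearly all from Cd68, with Cd3e and Tyrobp at 0. The 5 endothelial markers summed to at most 8.31 CPM, with Kdr at 0. The part of these markers in the results was not tested.

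As background, the genome is copied from origins that are licensed before S phase, when the origin recognition complex, Cdc6 and Cdt1 load the ring of Mcm2 to Mcm7 onto DNA. In S phase cyclin E and its kinase partner, together with Cdc45 and the GINS complex, turn this ring into an active helicase, and the polymerases follow. Most genes of this machinery are transcribed most around the passage into S phase under E2F factors, of which E2f1, E2f2 and E2f3 are known chiefly as activators, while E2f7 and E2f8 are repressors. Levels in dividing cultures therefore depend on how many cells are near or in S phase.

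The E2F binding word gives a view of what the genes share in sequence. A window of 300 bases, 250 before and 50 after a start site, was in the RefSeq table (build GRCm38.p6) for 33 of the 40 genes, in 39 windows. The genes not matched were Ccne2, Gins1, Gins2, Gins4, Gmnn, Mcm4 and Pole. It was searched on both strands for TTTCCCGC, TTTCGCGC, TTTGCCGC and TTTGGCGC, of which matches may overlap. At least 1 match lay in 15 of the 33 genes (45.5%), against 450 of 9523 tested genes with a window (4.73%). By window the shares were 38.5% of the genes' windows and 2.26% of all 32851 windows. CCAAT, searched the same way, was in 66.7% of the 33 genes and 43.6% of tested genes. Other words searched were TTTGAA or TTCGAA, in 27.3% and 16%, and CACGTG, in 15.2% and 11.7%. A match is a description of letters, not a measured site.

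The 250 bases before the start site are shown for the 5 genes whose match lies wholly upstream of every annotated start, to let the words be seen in place, with the matched letters in capitals. They are the helicase genes Mcm5 (chr8:75109259-75109508, plus strand) and Mcm6 (chr1:128359706-128359955, minus strand), the polymerase gene Pola1 (chrX:93632156-93632405, minus strand), and the factors E2f3 (chr13:29986064-29986313, minus strand) and E2f7 (chr10:110745189-110745438, plus strand), each written 5′ to 3′ on the strand of its gene. In Mcm5 and Mcm6 a pair of matches on opposite strands overlap, and Mcm6 has a further match 47 bases before its start site.
Mcm5: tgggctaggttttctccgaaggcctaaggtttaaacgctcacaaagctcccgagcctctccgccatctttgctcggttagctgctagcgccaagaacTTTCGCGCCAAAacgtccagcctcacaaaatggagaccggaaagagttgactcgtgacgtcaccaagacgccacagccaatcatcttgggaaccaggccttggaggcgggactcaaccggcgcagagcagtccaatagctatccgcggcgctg
Mcm6: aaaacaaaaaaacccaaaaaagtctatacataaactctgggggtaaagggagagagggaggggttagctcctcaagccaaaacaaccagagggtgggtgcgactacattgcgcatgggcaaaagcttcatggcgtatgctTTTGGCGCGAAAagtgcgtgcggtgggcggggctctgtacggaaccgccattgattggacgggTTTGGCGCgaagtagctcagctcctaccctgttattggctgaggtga
Pola1: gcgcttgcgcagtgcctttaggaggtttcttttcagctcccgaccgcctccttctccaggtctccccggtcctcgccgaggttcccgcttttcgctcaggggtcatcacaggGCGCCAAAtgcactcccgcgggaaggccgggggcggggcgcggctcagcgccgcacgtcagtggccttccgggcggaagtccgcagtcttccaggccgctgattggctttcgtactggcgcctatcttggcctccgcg
E2f3: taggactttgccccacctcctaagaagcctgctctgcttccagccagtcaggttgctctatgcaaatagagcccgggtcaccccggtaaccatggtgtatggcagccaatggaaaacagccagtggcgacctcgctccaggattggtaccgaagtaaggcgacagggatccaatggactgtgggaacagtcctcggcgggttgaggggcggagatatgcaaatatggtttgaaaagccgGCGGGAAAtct
E2f7: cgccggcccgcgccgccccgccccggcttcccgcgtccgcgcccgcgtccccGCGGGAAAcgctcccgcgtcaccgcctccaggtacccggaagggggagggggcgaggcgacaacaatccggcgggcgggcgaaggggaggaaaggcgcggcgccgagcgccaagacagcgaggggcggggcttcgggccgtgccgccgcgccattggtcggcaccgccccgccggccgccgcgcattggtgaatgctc

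Largazole was compared with DMSO in each genotype, which asks how the drug acts on these genes with and without the knockdown. In KD cells 39 of the 40 genes fell and E2f2 rose, where 47.7% of all genes tested changed, 23.1% falling and 24.6% rising. In parental cells 34 fell, E2f2 rose and 5 did not pass the test, where 49.3% of all genes changed, 22.6% falling and 26.8% rising. Both largazole libraries lay below both DMSO libraries for 39 of the 40 genes in KD cells and above them for 1, where this held for 34% and 35.6% of all genes. In parental cells it held for 37 and 1, against 38.9% and 42.2% of all genes. The median log2 fold change of the 40 genes was -1.48 in KD cells, where that of all genes was 0.01, and -0.97 in parental cells, where it was 0.03. Fewer cells in S phase and less of these RNAs per cell cannot be told apart in such bulk RNA. The 40 genes together took 0.135% and 0.142% of the counts in the KD largazole libraries, against 0.352% and 0.371% in KD DMSO, and 0.229% and 0.225% in parental largazole, against 0.433% and 0.435% in parental DMSO. Counts of calls moved by less than 1.5 times under any alternative tried, but the gap in calls between genotypes did not hold in all. With only the libraries compared, 37 fell and 0 rose in KD cells, and 36 fell and 1 rose in parental cells. Over all genes those fits called 4461 in KD cells and 7863 in parental cells. These and the later tests are edgeR's quasi-likelihood F test with Benjamini-Hochberg adjustment over all 12517 genes, with a threshold of 0.05, and errors of log2 fold changes are standard errors.

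**Figure D1:**
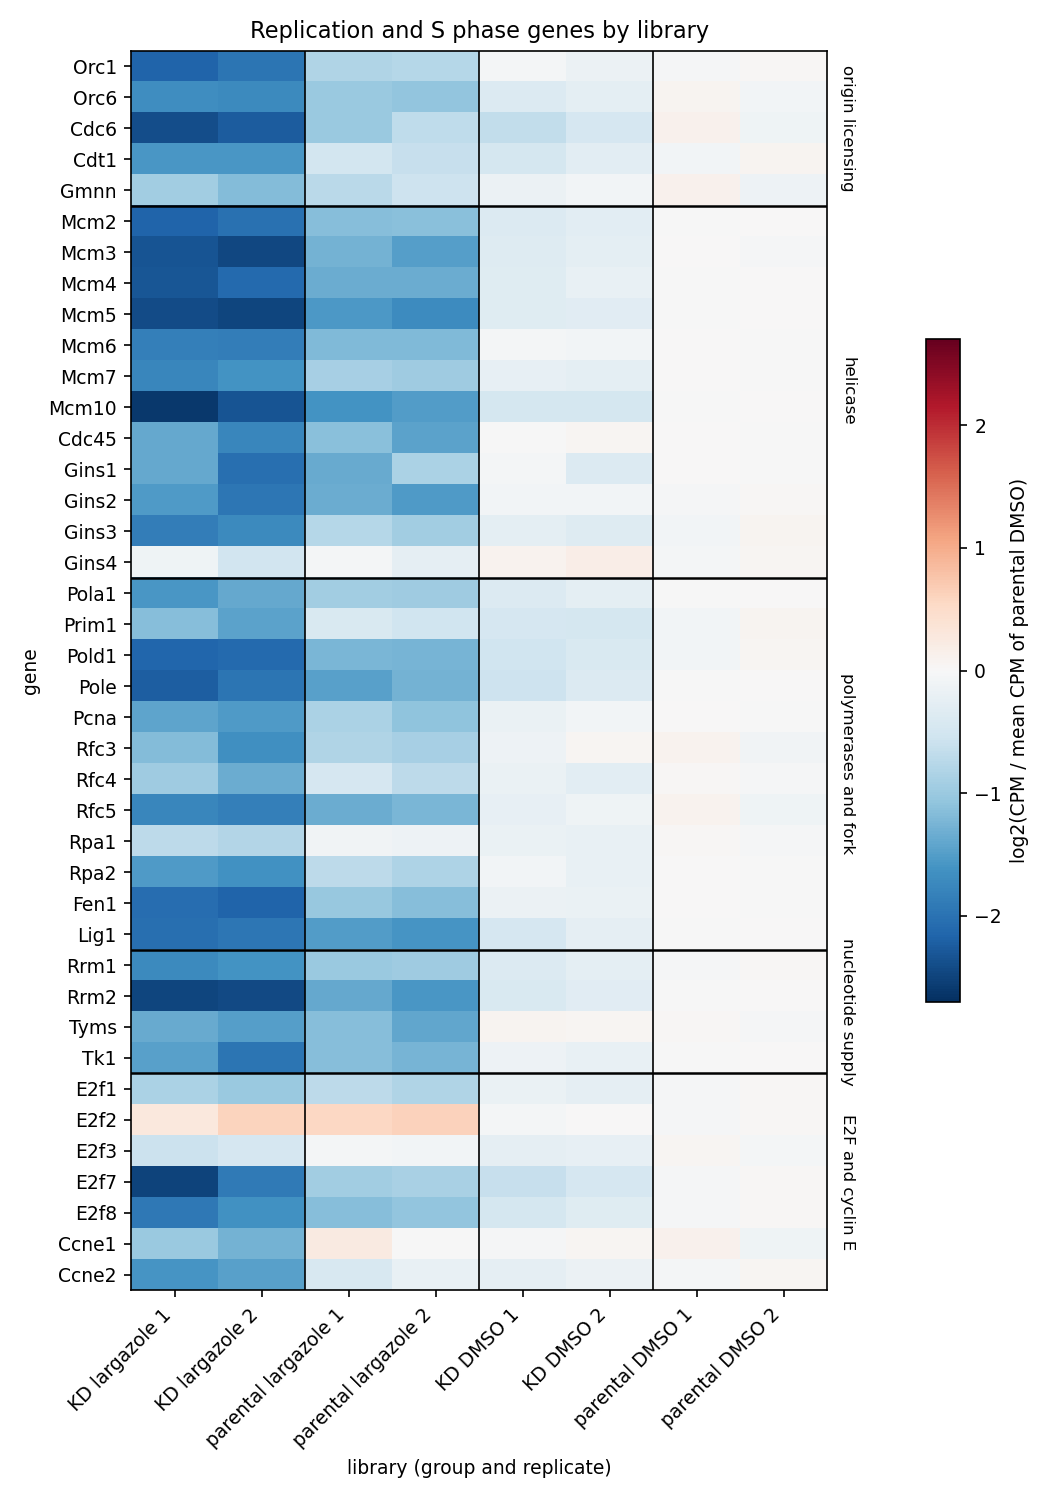
Level of each of the 40 genes in each of the 8 libraries, as log2 of its CPM over its mean CPM in parental DMSO, with genes in rows by role and libraries in columns. Blue is lower and red is higher than parental DMSO. Columns are darkest in KD largazole, E2f2 is the gene that is red in all 4 largazole libraries, and Gins4, Rpa1 and E2f3 stay pale in parental largazole.

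**Figure D2:**
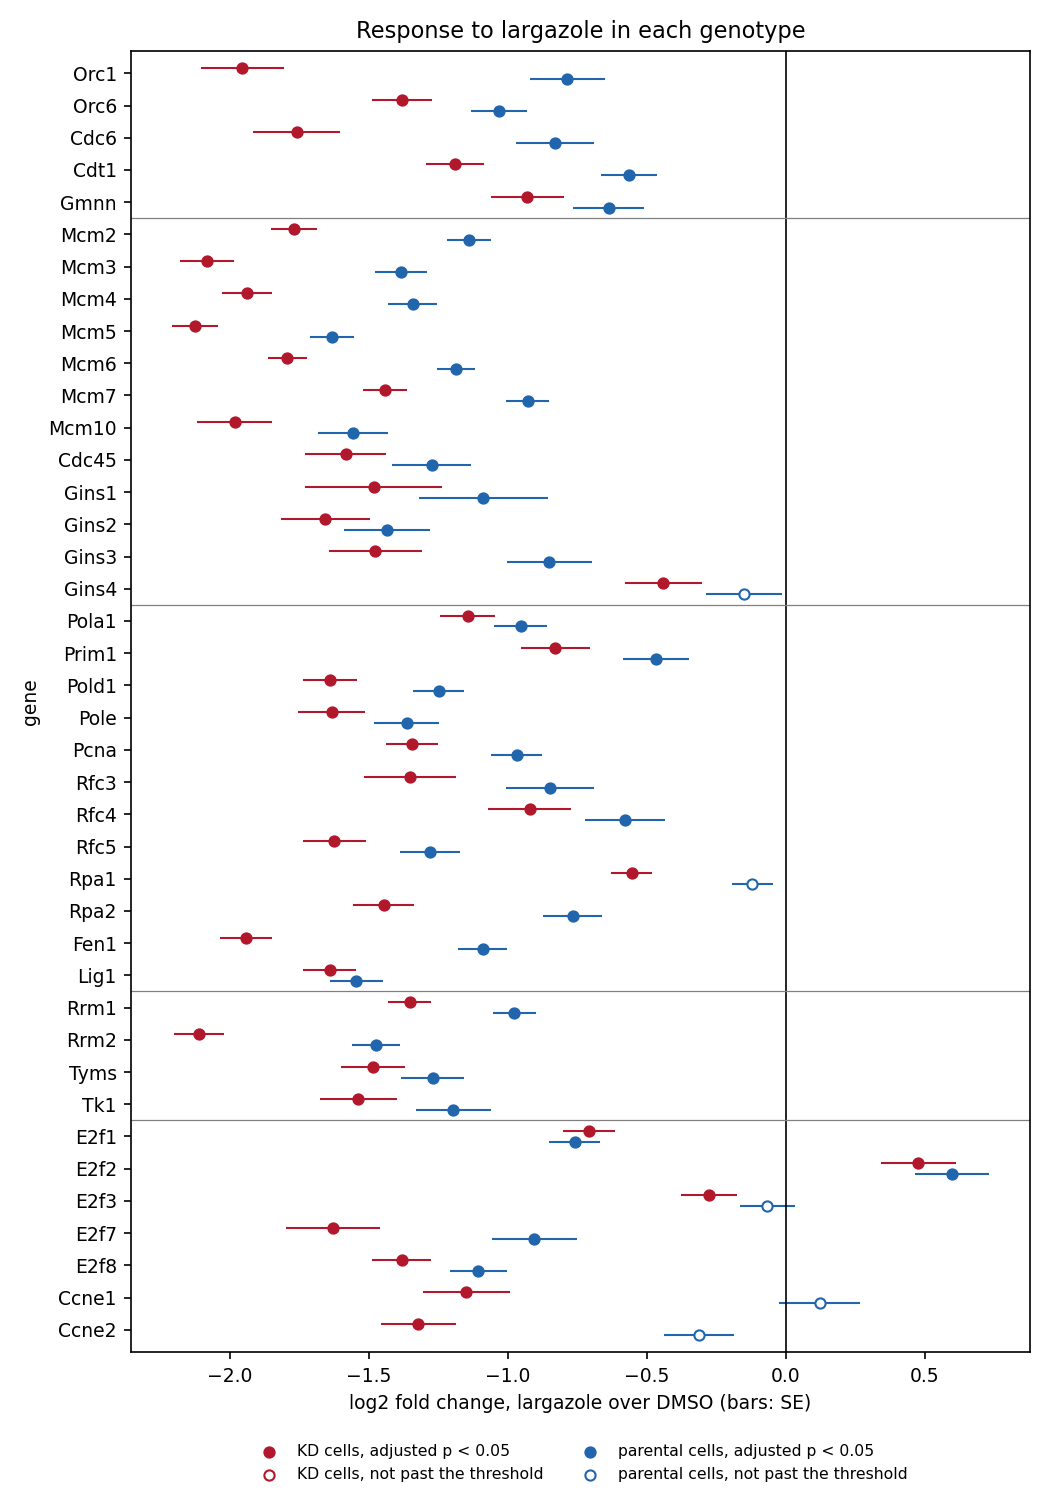
Log2 fold change of each gene with largazole over DMSO in KD cells (red) and parental cells (blue), with bars of 1 SE and filled points for adjusted p under 0.05. Most red points lie left of the blue ones, and Gins4, Rpa1, E2f3, Ccne1 and Ccne2 have open blue points.

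Origin licensing genes all fell in both genotypes, 5 of 5, where 23.1% of all genes tested fell in KD cells and 22.6% in parental cells. These shares also apply to the counts with largazole in the other roles. Orc1 encodes the subunit of the origin recognition complex whose level varies through the cell cycle. Orc1 measured 4.44 and 5.12 CPM in KD cells and 11.4 and 11.7 CPM in parental cells given largazole, against 19.2 and 18.0 CPM in KD cells and 19.7 and 20.3 CPM in parental cells kept in DMSO. Its log2 fold change was -1.95 ± 0.15 in KD cells (adjusted p = 5.47e-06) and -0.79 ± 0.13 in parental cells (adjusted p = 0.000944), and neither largazole group overlapped its DMSO group. Orc6, another subunit of the complex, passed the test in both genotypes too. Orc6 counts in the largazole libraries were 17.7 and 16.99 CPM for KD and 27.9 and 27.0 CPM for parental cells, against 43.2 and 47.1 CPM for KD and 58.8 and 53.6 CPM for parental cells in the DMSO libraries. These gave log2 fold changes of -1.38 ± 0.11 and -1.03 ± 0.10. Cdc6 encodes the ATPase that helps load the MCM ring. Cdc6 reached 9.20 and 10.2 CPM in drug-treated KD cells and 24.2 and 30.2 CPM in drug-treated parental cells, against 30.6 and 35.1 CPM in KD and 52.3 and 44.5 CPM in parental cells in DMSO. Its parental largazole values lay just below those of KD DMSO, and its KD largazole values were the lowest by a wide gap. The log2 fold changes were -1.76 ± 0.16 in KD cells and -0.83 ± 0.14 in parental cells. Cdt1, the loading partner of Cdc6, changed by -1.19 ± 0.11 in KD cells and -0.56 ± 0.10 in parental cells. Cdt1 counts in the largazole libraries were 30.2 and 30.5 CPM for KD and 63.5 and 58.3 CPM for parental cells, against 65.2 and 73.4 CPM for KD and 85.3 and 94.9 CPM for parental cells in the DMSO libraries. Its KD DMSO values overlapped neither parental group. Gmnn, which encodes the Cdt1 inhibitor geminin, changed by -0.93 ± 0.13 and -0.64 ± 0.13, the smallest fall of the 5 in KD cells.

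Helicase genes fell in 12 of 12 cases in KD cells and 11 of 12 in parental cells, with medians of -1.71 and -1.23. The Mcm2 to Mcm7 genes encode the ring that unwinds DNA. Mcm5 measured 41.9 and 40.4 CPM in KD cells and 75.9 and 68.7 CPM in parental cells given largazole, against 178 and 180.3 CPM in KD cells and 222.9 and 225 CPM in parental cells kept in DMSO. This was the largest fall of the group in both genotypes, -2.12 ± 0.08 in KD cells (adjusted p = 1.70e-07) and -1.63 ± 0.08 in parental cells (adjusted p = 5.22e-07). Mcm3 counts in the largazole libraries were 34.8 and 32.0 CPM for KD and 71.9 and 62.4 CPM for parental cells, against 138 and 146 CPM for KD and 178 and 173 CPM for parental cells in the DMSO libraries. Its 4 groups were separate and ordered with KD largazole lowest and parental DMSO highest. Mcm6 reached 82.2 and 81.1 CPM in drug-treated KD cells and 130.4 and 129.5 CPM in drug-treated parental cells, against 286 and 279.9 CPM in KD and 299 and 292 CPM in parental cells in DMSO. Here the KD DMSO and parental DMSO libraries lay close together, and the largazole groups were far apart. Mcm3 changed by -2.08 ± 0.10 in KD cells and -1.38 ± 0.09 in parental cells, and Mcm6 by -1.79 ± 0.07 and -1.19 ± 0.07. Mcm2 measured 59.3 and 65.6 CPM in KD cells and 119.9 and 122 CPM in parental cells given largazole, against 206 and 220.1 CPM in KD cells and 264 and 269 CPM in parental cells kept in DMSO. Mcm2 changed by -1.77 ± 0.08 and -1.14 ± 0.08, Mcm4 by -1.94 ± 0.09 and -1.34 ± 0.09 and Mcm7 by -1.44 ± 0.08 and -0.93 ± 0.08. Across the 6 ring genes the changes thus ran from -2.12 to -1.44 in KD cells and from -1.63 to -0.93 in parental cells. Exons of Mcm7, and likewise of Orc6, Gins2, Rfc4, Rfc5, Fen1, Tk1 and Ccne2, overlap those of another tested gene on the opposite strand. The libraries were stranded, but the sources used here do not give the strand setting of the counting. Whether reads of such pairs were kept apart is therefore not known.

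Mcm10, a scaffold that helps start the helicase, was among the genes most lowered. Mcm10 counts in the largazole libraries were 6.31 and 7.69 CPM for KD and 12.6 and 13.6 CPM for parental cells, against 27.8 and 27.8 CPM for KD and 38.3 and 38.9 CPM for parental cells in the DMSO libraries. The log2 fold change was -1.98 ± 0.14 in KD cells and -1.56 ± 0.13 in parental cells. Cdc45, which joins the ring with GINS, changed by -1.58 ± 0.14 and -1.27 ± 0.14. The 4 GINS genes encode the subunits of 1 complex. Gins1 changed by -1.48 ± 0.25 in KD cells and -1.09 ± 0.23 in parental cells, Gins2 by -1.66 ± 0.16 and -1.43 ± 0.16 and Gins3 by -1.48 ± 0.17 and -0.85 ± 0.15. Gins4 reached 31.0 and 23.6 CPM in drug-treated KD cells and 32.3 and 28.4 CPM in drug-treated parental cells, against 35.8 and 38.2 CPM in KD and 32.6 and 34.8 CPM in parental cells in DMSO. Gins4 thus held 81.0% of its parental DMSO level in KD largazole and 90.1% in parental largazole. Its log2 fold change was -0.44 ± 0.14 in KD cells (adjusted p = 0.0238) and -0.15 ± 0.14 in parental cells (adjusted p = 0.386). The call in KD cells was lost in 5 of 18 alternatives, with adjusted p = 0.114 without KD DMSO replicate 2.

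Polymerase and fork genes fell in 12 of 12 cases in KD cells and 11 of 12 in parental cells, with medians of -1.40 and -0.96. Lig1 encodes the ligase that seals lagging strand fragments. Lig1 measured 38.6 and 40.6 CPM in KD cells and 55.5 and 52.3 CPM in parental cells given largazole, against 114 and 133 CPM in KD cells and 156 and 159 CPM in parental cells kept in DMSO. Its log2 fold change was -1.64 ± 0.10 in KD cells and -1.54 ± 0.09 in parental cells. Pole encodes the catalytic subunit of the leading strand polymerase. Pole counts in the largazole libraries were 21.1 and 25.2 CPM for KD and 36.2 and 40.9 CPM for parental cells, against 67.1 and 76.8 CPM for KD and 98.5 and 100.0 CPM for parental cells in the DMSO libraries. Its log2 fold changes were -1.63 ± 0.12 and -1.36 ± 0.12. Fen1 encodes the nuclease that trims the flaps of lagging strand fragments. Fen1 reached 25.6 and 23.9 CPM in drug-treated KD cells and 52.2 and 47.8 CPM in drug-treated parental cells, against 95.6 and 94.6 CPM in KD and 107 and 105 CPM in parental cells in DMSO. Both largazole groups of Fen1 lay far below the DMSO groups, whose values were close together, with log2 fold changes of -1.94 ± 0.09 and -1.09 ± 0.09. Pold1, the catalytic subunit of the lagging strand polymerase, changed by -1.64 ± 0.10 and -1.25 ± 0.09. Pold1 measured 24.2 and 24.9 CPM in KD cells and 45.3 and 44.4 CPM in parental cells given largazole, against 73.3 and 79.9 CPM in KD cells and 102 and 111 CPM in parental cells kept in DMSO. All 4 groups of Pold1 were separate.

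Pcna, the sliding clamp of the polymerases, was the most abundant of the 40 genes per length, with 41.1 CPM per kilobase of exon for KD and 58.2 for parental cells given largazole, against 104 for KD and 114 for parental cells in DMSO. Its log2 fold change was -1.34 ± 0.09 in KD cells and -0.97 ± 0.09 in parental cells. The clamp loader genes Rfc3, Rfc4 and Rfc5 changed by -1.35, -0.92 and -1.62 in KD cells and by -0.85, -0.58 and -1.28 in parental cells. The call of Rfc4 in parental cells was lost without parental largazole replicate 2 (adjusted p = 0.0633). Pola1 and Prim1 encode the catalytic subunits of the polymerase alpha and primase complex that starts new strands. Pola1 changed by -1.14 and -0.95 and Prim1 by -0.83 and -0.47. The parental call of Prim1 was lost without parental DMSO replicate 2 (adjusted p = 0.0721) or parental largazole replicate 2 (adjusted p = 0.0592).

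Rpa1 and Rpa2 encode subunits of the complex that coats single-stranded DNA. Rpa1 counts in the largazole libraries were 131 and 123 CPM for KD and 199.9 and 193 CPM for parental cells, against 188 and 185 CPM for KD and 219 and 208 CPM for parental cells in the DMSO libraries. Rpa1 changed by -0.55 ± 0.07 in KD cells (adjusted p = 0.000196) and by -0.12 ± 0.07 in parental cells (adjusted p = 0.195). With only the libraries compared the parental change passed (adjusted p = 0.0402). Rpa2 changed by -1.45 ± 0.11 and -0.77 ± 0.10.

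Nucleotide supply genes fell in 4 of 4 cases in both genotypes, with medians of -1.51 in KD cells and -1.23 in parental cells. Rrm1 and Rrm2 encode the subunits of ribonucleotide reductase, which makes deoxyribonucleotides, and Rrm2 is the one made mainly in S phase. Rrm2 reached 40.5 and 41.9 CPM in drug-treated KD cells and 86.8 and 76.1 CPM in drug-treated parental cells, against 171 and 184 CPM in KD and 225 and 227 CPM in parental cells in DMSO. The log2 fold change of Rrm2 was -2.11 ± 0.09 in KD cells (adjusted p = 3.01e-07) and -1.47 ± 0.09 in parental cells (adjusted p = 1.20e-06). Rrm1 measured 127 and 138 CPM in KD cells and 211 and 216 CPM in parental cells given largazole, against 325 and 352 CPM in KD cells and 413 and 428 CPM in parental cells kept in DMSO. Rrm1 changed less, by -1.35 ± 0.08 and -0.98 ± 0.08, and its 4 groups were separate too. Tyms encodes thymidylate synthase, which makes thymidine monophosphate. Tyms counts in the largazole libraries were 20.1 and 18.3 CPM for KD and 23.2 and 19.3 CPM for parental cells, against 54.1 and 53.5 CPM for KD and 52.2 and 50.4 CPM for parental cells in the DMSO libraries. Its largazole groups overlapped each other, as did no largazole and DMSO pair, and it changed by -1.49 ± 0.12 and -1.27 ± 0.11. Tk1, the thymidine salvage kinase, changed by -1.54 ± 0.14 and -1.20 ± 0.14. Tk1 reached 43.4 and 30.6 CPM in drug-treated KD cells and 54.4 and 50.7 CPM in drug-treated parental cells, against 109 and 105 CPM in KD and 119 and 122 CPM in parental cells in DMSO. The KD largazole libraries of Tk1 differed from each other more than those of the other groups did.

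E2F and cyclin E genes were the least uniform, with 6 of 7 lower and 1 higher in KD cells and 3 lower, 1 higher and 3 not called in parental cells. The repressors E2f7 and E2f8 fell in both genotypes. E2f7 measured 7.79 and 11.7 CPM in KD cells and 23.0 and 23.9 CPM in parental cells given largazole, against 28.6 and 32.0 CPM in KD cells and 42.7 and 45.1 CPM in parental cells kept in DMSO. Its log2 fold change was -1.63 ± 0.17 in KD cells and -0.90 ± 0.15 in parental cells. E2f8 counts in the largazole libraries were 51.8 and 63.5 CPM for KD and 89.1 and 95.3 CPM for parental cells, against 143 and 158 CPM for KD and 193 and 203 CPM for parental cells in the DMSO libraries. E2f8 changed by -1.38 ± 0.11 and -1.11 ± 0.10. The activators did not move together. E2f1 changed by -0.71 ± 0.09 and -0.76 ± 0.09. E2f2 was the gene that rose. E2f2 reached 21.3 and 26.4 CPM in drug-treated KD cells and 25.9 and 27.1 CPM in drug-treated parental cells, against 16.8 and 17.6 CPM in KD and 17.1 and 17.9 CPM in parental cells in DMSO. All 4 largazole values of E2f2 were above all 4 DMSO values, and the log2 fold changes were 0.47 ± 0.13 in KD cells (adjusted p = 0.0152) and 0.60 ± 0.13 in parental cells (adjusted p = 0.00442). In KD cells the call was lost in 4 of 18 alternatives, with adjusted p = 0.0871 without KD DMSO replicate 1. E2f3 changed by -0.28 ± 0.10 in KD cells (adjusted p = 0.045), a call lost in 13 of 18 alternatives, and by -0.07 ± 0.10 in parental cells (adjusted p = 0.598).

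The cyclin E genes Ccne1 and Ccne2 encode the regulatory subunits that drive entry into S phase. Ccne1 measured 11.9 and 9.91 CPM in KD cells and 28.4 and 23.7 CPM in parental cells given largazole, against 23.4 and 24.9 CPM in KD cells and 25.95 and 22.0 CPM in parental cells kept in DMSO. The KD largazole libraries stood apart from the other 6, which overlapped. Ccne1 had a log2 fold change of -1.15 ± 0.16 in KD cells (adjusted p = 0.000216) and was at 0.12 ± 0.15 in parental cells (adjusted p = 0.515). Ccne2 counts in the largazole libraries were 9.66 and 10.6 CPM for KD and 21.5 and 25.4 CPM for parental cells, against 24.6 and 26.1 CPM for KD and 28.02 and 30.2 CPM for parental cells in the DMSO libraries. Ccne2 changed by -1.32 ± 0.14 in KD cells (adjusted p = 3.76e-05) and by -0.31 ± 0.13 in parental cells (adjusted p = 0.0616). The parental change of Ccne2 passed with only the libraries compared (adjusted p = 0.0146), with limma-voom (0.0483) and with the replicate number as a block (0.0318). It did not pass in the other alternatives that keep 2 libraries a group.

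**Figure D3:**
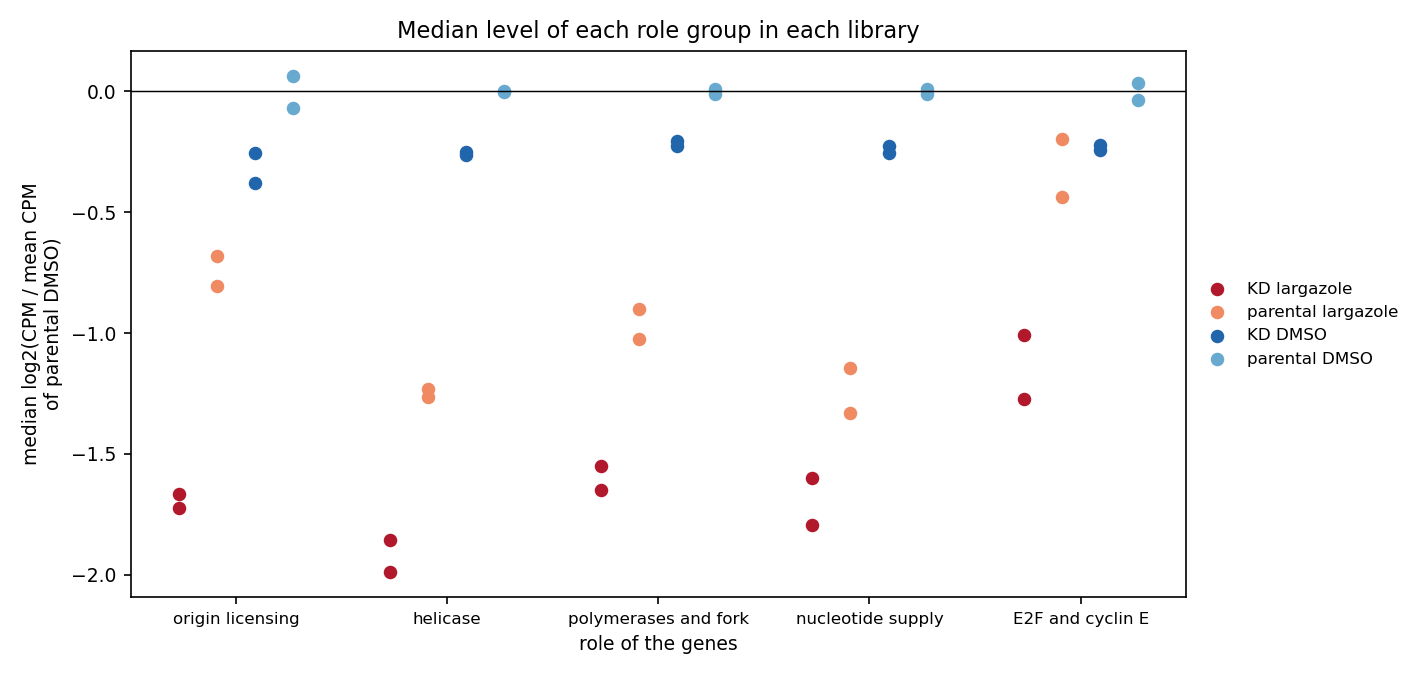
Median over the genes of each role of log2 CPM relative to the mean CPM of parental DMSO, 1 point per library, with groups side by side from KD largazole to parental DMSO. KD largazole libraries are lowest in every role, and the parental largazole libraries lie near KD DMSO for E2F and cyclin E genes, from -0.44 to -0.20 against -0.24 to -0.22.

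The knockdown was compared with parental cells under largazole and in DMSO, which asks whether lowering PRDX6 alters these genes with and without the drug. Under largazole 31 of the 40 genes were lower in KD cells and none was higher, where 17.8% of all genes tested differed, 9.67% lower and 8.12% higher. In DMSO 13 were lower and none was higher, where 11.1% of all genes differed, 4.01% lower and 7.11% higher. All 13 were also among the 31. The median log2 fold change was -0.68 under largazole and -0.23 in DMSO, with all genes at -0.003 and 0. Both KD libraries lay below both parental ones for 36 genes under largazole, where this held for 27.8% of all genes, and for 33 genes in DMSO, where it held for 30.3%. Both lay above for 0 genes under largazole (25.6% of all genes) and for 2 in DMSO (30.5% of all genes). The 2 comparisons have no library in common. Of 7 fibroblast markers tested 5 were higher in KD cells under largazole and 7 in DMSO, and their part in the result was not tested.

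The count in DMSO rested on the libraries. Leaving out KD DMSO replicate 1 gave 0 calls and leaving out its replicate 2 gave 2, while for parental DMSO replicates 1 and 2 the counts were 1 and 0. Omission of either parental largazole library gave 5. Omission of KD largazole replicate 1 gave 19 and of replicate 2 gave 20, with the spread taken from the tighter groups, and fitting only the libraries compared gave 20. Each of the 13 calls was lost without at least 1 library, with the highest adjusted p between 0.125 for Pold1 and 0.312 for Lig1. The median stayed between -0.27 and -0.23 without any 1 library. With only the libraries compared the count under largazole was 25, against 20 in DMSO, so the gap between 31 and 13 narrowed. Over all genes those fits called 957 under largazole and 3248 in DMSO. The median under largazole stayed between -0.75 and -0.67 without any 1 library.

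**Figure D4:**
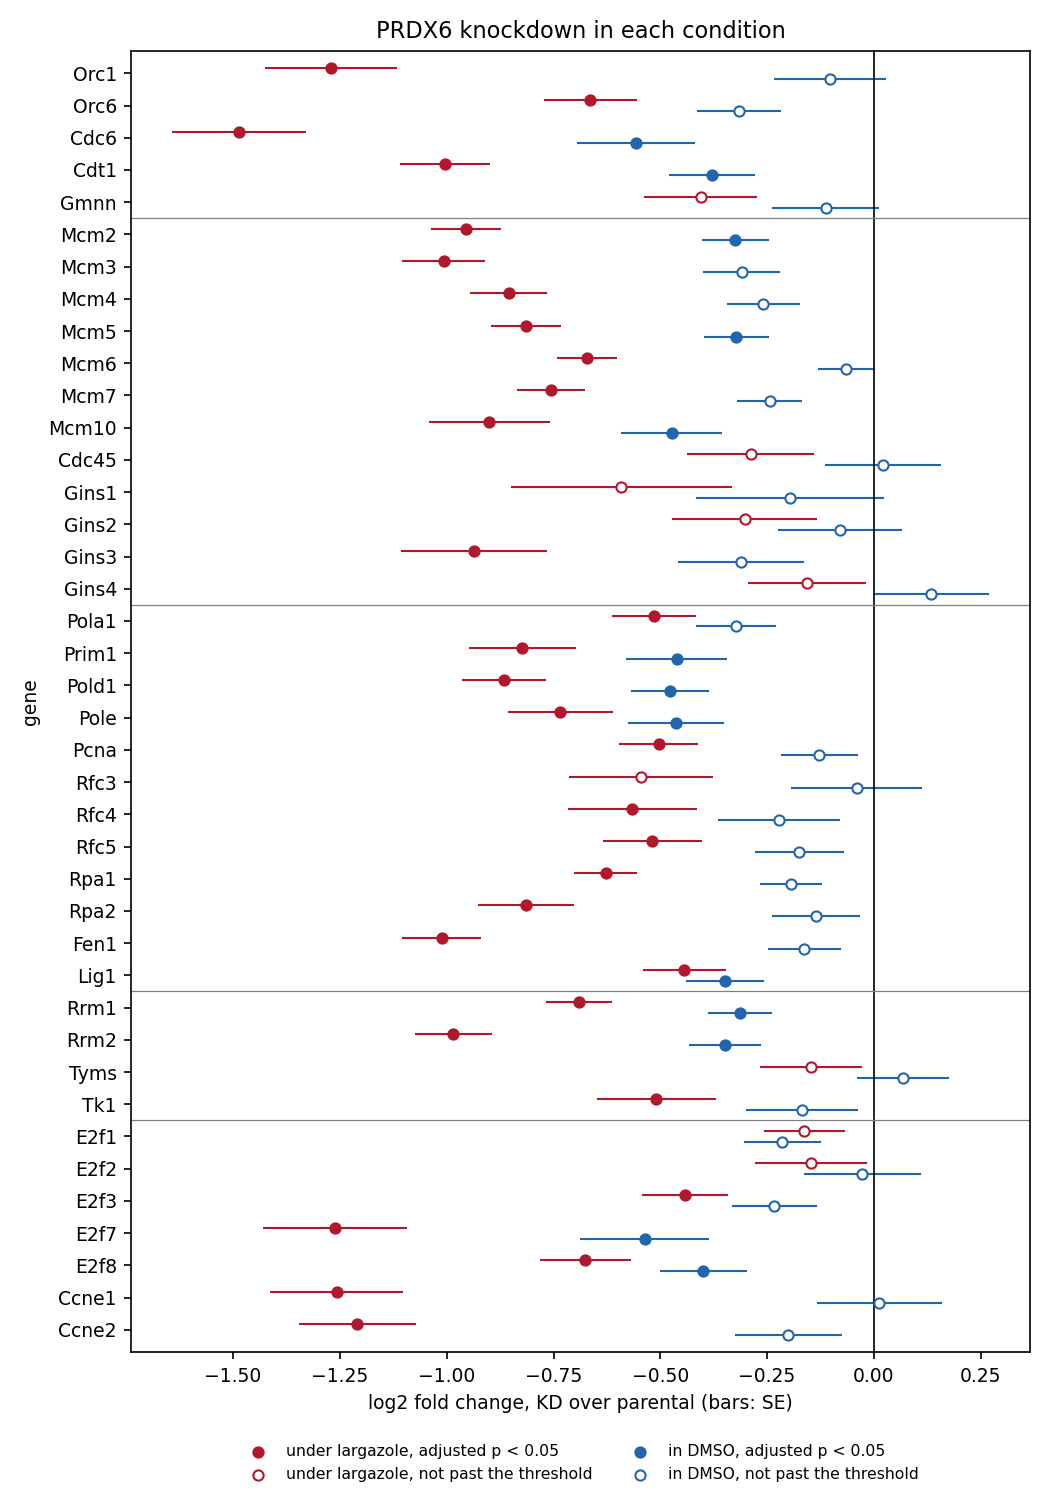
Log2 fold change of each gene in KD over parental cells under largazole (red) and in DMSO (blue), with bars of 1 SE and filled points for adjusted p under 0.05. Red points lie left of blue ones for 39 of 40 genes, E2f1 being the exception, and no filled point lies right of 0.

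Among licensing genes 4 of 5 were lower in KD cells under largazole and 2 of 5 in DMSO. Of all genes tested 9.67% and 4.01% were lower, shares that also apply to the knockdown counts in the other roles. Cdc6 had the largest difference of the 40 genes in both conditions, -1.49 ± 0.16 under largazole (adjusted p = 0.000281) and -0.56 ± 0.14 in DMSO (adjusted p = 0.0293). Orc1, by contrast, was at -1.27 ± 0.15 under largazole (adjusted p = 0.000575) and -0.10 ± 0.13 in DMSO (adjusted p = 0.695). Cdt1 was lower, at -1.005 ± 0.11 and -0.38 ± 0.10, past the threshold in both. Orc6 stood at -0.66 ± 0.11 and -0.32 ± 0.10, short of the threshold in DMSO (adjusted p = 0.0717). Gmnn missed it in both conditions, with -0.41 ± 0.13 under largazole (adjusted p = 0.0613) and -0.11 ± 0.13 in DMSO (adjusted p = 0.645).

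Of the 12 helicase genes 8 were lower under largazole and 3 in DMSO. All 6 ring genes were among the 8, with log2 fold changes from -1.01 for Mcm3 to -0.67 for Mcm6. Mcm2 stood at -0.95 ± 0.08 under largazole (adjusted p = 9.54e-05) and -0.32 ± 0.08 in DMSO (adjusted p = 0.0251), and Mcm5 at -0.81 ± 0.08 and -0.32 ± 0.08. Mcm10 was at -0.90 ± 0.14 and -0.47 ± 0.12, and Gins3 at -0.94 ± 0.17 and -0.31 ± 0.15 (adjusted p = 0.228 in DMSO). The remaining partners of the ring did not pass in either condition. Under largazole Cdc45 stood at -0.29 ± 0.15 (adjusted p = 0.218), Gins1 at -0.59 ± 0.26 (adjusted p = 0.149), Gins2 at -0.30 ± 0.17 (adjusted p = 0.26) and Gins4 at -0.16 ± 0.14 (adjusted p = 0.49). With KD largazole replicate 1 left out their adjusted p was between 0.0153 and 0.043, but that group then holds 1 library and the spread comes from the other groups.

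Among polymerase and fork genes 11 of 12 were lower under largazole and 4 in DMSO. The 4 were Pold1, Pole, Prim1 and Lig1. Pold1 was at -0.87 ± 0.10 under largazole and -0.48 ± 0.09 in DMSO (adjusted p = 0.00855), Pole at -0.73 ± 0.12 and -0.46 ± 0.11, Prim1 at -0.82 ± 0.12 and -0.46 ± 0.12 and Lig1 at -0.44 ± 0.10 and -0.35 ± 0.09. Fen1 was at -1.01 ± 0.09 under largazole (adjusted p = 0.000153) and -0.16 ± 0.09 in DMSO (adjusted p = 0.278). The values under largazole were -0.81 for Rpa2, -0.63 for Rpa1, -0.57 for Rfc4, -0.52 for Rfc5, -0.51 for Pola1 and -0.50 for Pcna, all past the threshold. Rfc3 missed it at -0.55 ± 0.17 (adjusted p = 0.0504). Rfc3 passed with RLE scaling (adjusted p = 0.0494), DESeq2 (0.0353), scaling by library totals only (0.0347) and no filter on low counts (0.0169). It also passed with the replicate number as a block (0.0207), but in no other alternative that keeps 2 libraries a group. Without parental largazole replicate 1 the calls of Lig1 (adjusted p = 0.1), Pcna (0.0648), Rfc4 (0.202), Pola1 (0.0538) and Rfc5 (0.0554) were lost. Without its replicate 2 those of Lig1 (0.0611), Rfc4 (0.0547), Pola1 (0.0549) and Rfc5 (0.107) were lost. Rfc4 was lost in 6 of 18 alternatives in all.

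In nucleotide supply, 3 of 4 genes were lower under largazole and 2 in DMSO. Rrm2 stood at -0.98 ± 0.09 under largazole (adjusted p = 0.000153) and -0.35 ± 0.08 in DMSO (adjusted p = 0.0263), and Rrm1 at -0.69 ± 0.08 and -0.31 ± 0.08. Tk1 was lower under largazole, at -0.51 ± 0.14 (adjusted p = 0.0317), a call lost in 7 of 18 alternatives, with adjusted p up to 0.172 without parental largazole replicate 1, and Tyms was at -0.15 ± 0.12 (adjusted p = 0.448). Of the E2F and cyclin E genes 5 of 7 were lower under largazole and 2 in DMSO. E2f7 stood at -1.26 ± 0.17 and -0.54 ± 0.15, and E2f8 at -0.68 ± 0.11 and -0.40 ± 0.10. Both cyclin genes were lower under largazole, Ccne1 at -1.26 ± 0.15 (adjusted p = 0.000605) and Ccne2 at -1.21 ± 0.14 (adjusted p = 0.000406), while in DMSO they were at 0.01 ± 0.15 (adjusted p = 0.986) and -0.20 ± 0.13 (adjusted p = 0.369). E2f3 was lower under largazole, at -0.44 ± 0.10, a call lost without parental largazole replicate 1 (adjusted p = 0.0958) or 2 (adjusted p = 0.0987). E2f1 and E2f2 did not pass in either condition, with -0.16 and -0.15 under largazole and -0.21 and -0.03 in DMSO.

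The difference between the largazole responses of KD and parental cells was then tested, the same quantity as the difference between the knockdown's effects with and without the drug. It was negative, that is a lower log2 fold change in KD cells, for 39 of the 40 genes, where 55.1% of all genes tested had a negative value. The median was -0.39 on the log2 scale, against -0.03 for all genes. Past the threshold were 2 genes, both lower, where 0.232% of all genes passed, 0.192% lower and 0.0399% higher. These were Fen1 with -0.85 ± 0.13 (adjusted p = 0.032) and Mcm6 with -0.61 ± 0.10 (adjusted p = 0.0471). The largest values were those of Ccne1 with -1.27 ± 0.21 (adjusted p = 0.0543), Orc1 with -1.17 ± 0.20 (adjusted p = 0.0625) and Ccne2 with -1.01 ± 0.19 (adjusted p = 0.0783), none past the threshold. Cdc6 was at -0.93 ± 0.21 (adjusted p = 0.143) and Mcm2 at -0.63 ± 0.11 (adjusted p = 0.0688). Near 0 were E2f1 with 0.05 ± 0.13, Lig1 with -0.10 ± 0.13 and E2f2 with -0.12 ± 0.19. The number of genes past the threshold was 0 without any 1 of the 6 libraries outside KD largazole. It was 18 without either KD largazole library, where that group holds 1 library and the spread comes from the other, tighter groups, so these calls are no check on the 2 genes. It was 10 with DESeq2 and with no filter on low counts, and 1 with limma-voom, with RLE scaling and with library totals only.

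**Figure D5:**
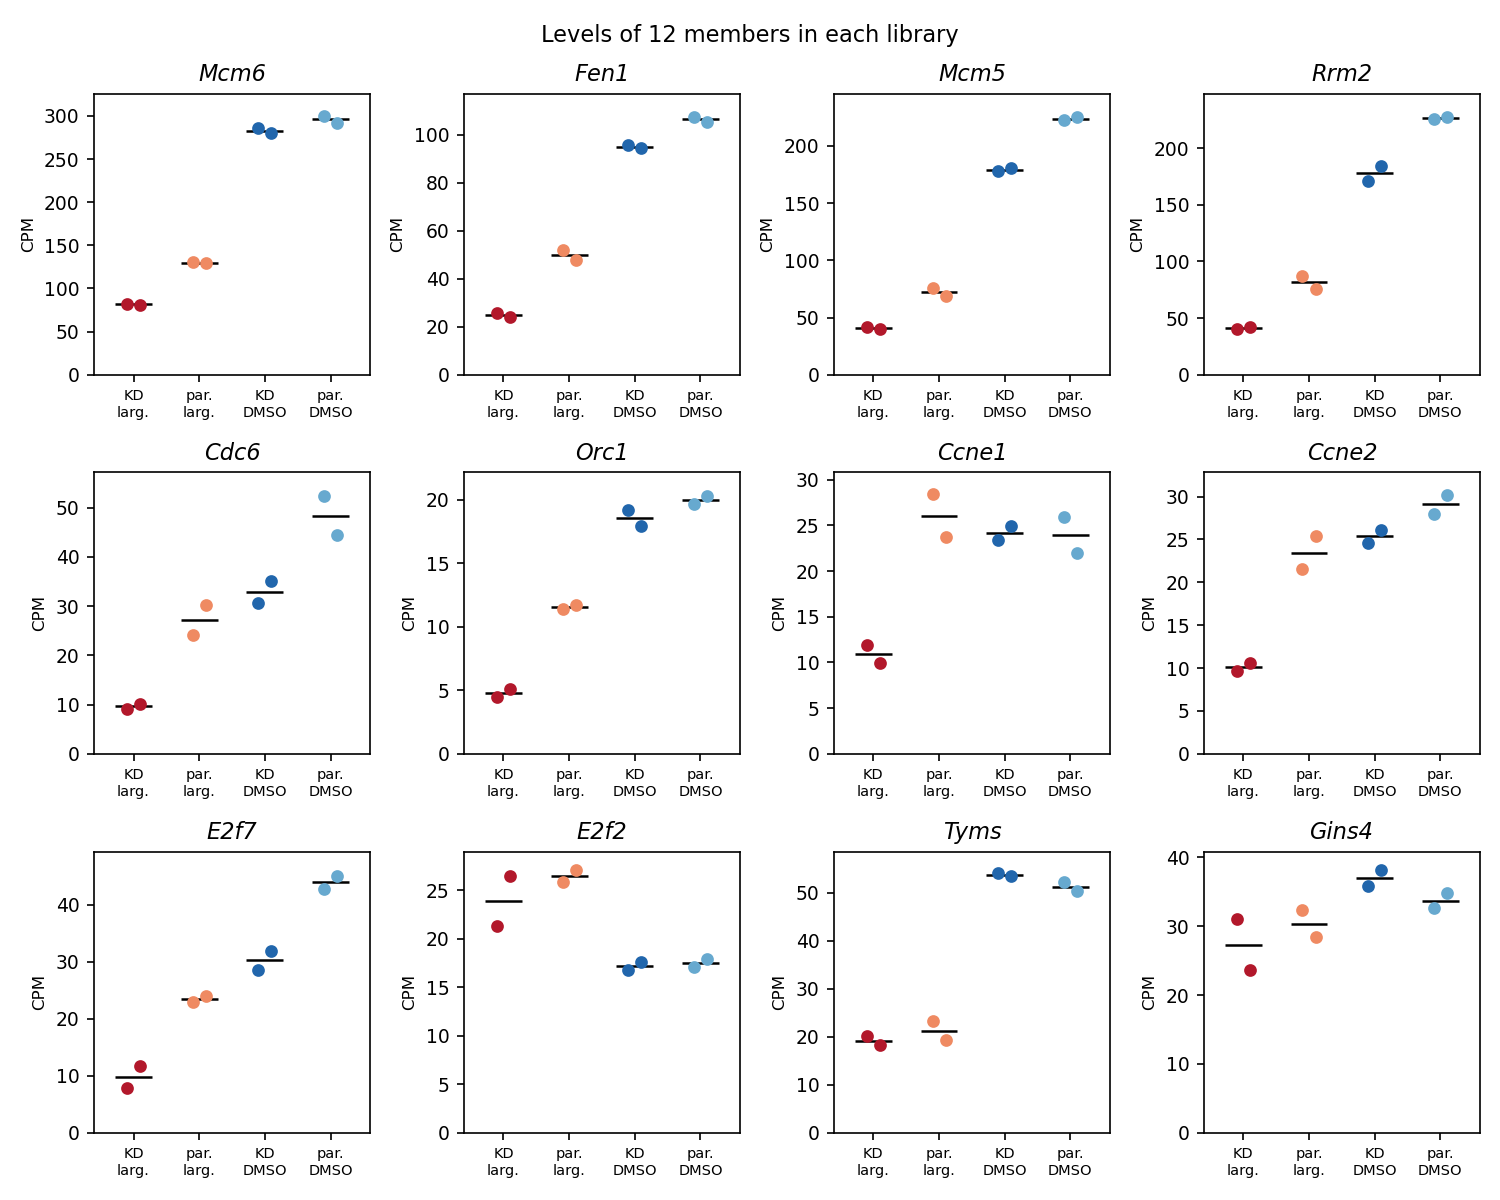
CPM of 12 of the 40 genes in each library, with 2 points per group and a line at their mean, groups from KD largazole on the left to parental DMSO on the right. Mcm6 and Fen1 are lowest in KD largazole and close together in the DMSO groups, Ccne1 is lowest in the 2 KD largazole libraries, and E2f2 is higher in both largazole groups.

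Set beside parental cells in DMSO, KD largazole libraries held a median of 31.0% of the parental DMSO level over the 40 genes, parental largazole 51.0% and KD DMSO 85.4%, as ratios of mean CPM given without a test. In KD largazole 35 of the 40 genes were under 50% and 12 under 25%, in parental largazole 19 and 0, and in KD DMSO 0 and 0. The lowest were Mcm10 with 18.1% in KD largazole, Mcm5 with 32.3% in parental largazole and Cdc6 with 68.0% in KD DMSO. E2f2 was highest in both largazole groups, with 136% in KD and 151% in parental cells.

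Other genes of DNA replication, 36 in all, moved the same way for the most part. With largazole 31 fell and 2 rose in KD cells, and 28 fell and 2 rose in parental cells. Over all genes tested 23.1% fell and 24.6% rose in KD cells, and 22.6% fell and 26.8% rose in parental cells. Recql4, a helicase needed to start replication, changed by -2.06 ± 0.16 in KD cells and -1.90 ± 0.15 in parental cells, Mtbp, an origin firing factor, by -1.90 ± 0.11 and -1.60 ± 0.10, and Clspn, an adaptor of the fork checkpoint, by -1.90 ± 0.11 and -1.503 ± 0.10. The 2 that rose in each genotype were Orc3 (0.31 and 0.46), a subunit of the origin recognition complex, and Pold4 (0.58 and 0.58), the small subunit of polymerase delta. Under largazole 15 of the 36 were lower in KD than in parental cells, led by Atad5 with -1.18 ± 0.15, which unloads the clamp, and in DMSO 6 were lower. Their medians were -0.98 and -0.74 for largazole in KD and parental cells, and -0.43 and -0.12 for the knockdown under largazole and in DMSO. With the knockdown 9.67% of all genes tested were lower under largazole and 4.01% in DMSO, and 8.12% and 7.11% were higher. These shares of all genes also apply to the lists that follow.

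Of 19 other genes of nucleotide supply 13 fell and 3 rose with largazole in KD cells, and 11 fell and 3 rose in parental cells. The 1-carbon enzymes Shmt1 and Shmt2 changed by -1.91 and -1.54 in KD cells and -1.66 and -1.26 in parental cells. The 3 that rose in both were Impdh1, an enzyme of guanine nucleotide synthesis, Rrm2b, the reductase subunit that is not tied to S phase, and Tk2, the mitochondrial thymidine kinase. Rrm2b stood at 0.52 ± 0.11 and 0.58 ± 0.11, the opposite direction to Rrm2. Under largazole 11 of the 19 were lower and 2 higher in KD cells, and in DMSO 6 lower and 1 higher. Cad, the enzyme that begins pyrimidine synthesis, was at -0.997 ± 0.09 under largazole and -0.61 ± 0.09 in DMSO. All 12 genes of a list named for chromatin replication, Lbr and Slbp among them, fell with largazole in both genotypes. With the knockdown 8 of them were lower under largazole and 4 in DMSO. Uhrf1, a maintenance methylation factor, was at -0.89 ± 0.11 and -0.49 ± 0.11.

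Of 14 genes of the RB and DREAM complexes and other E2F factors, which restrain or time E2F targets, 10 fell and 2 rose with largazole in each genotype. Rb1, the retinoblastoma protein gene, was higher by 0.97 ± 0.13 in KD cells and 1.17 ± 0.13 in parental cells, and E2f6, a repressor, by 0.45 and 0.61. Mybl2, a factor that joins this complex in cycling cells, changed by -1.69 and -1.29, and was lower with the knockdown, at -1.06 ± 0.14 under largazole and -0.66 ± 0.12 in DMSO. In all, 4 of the 14 were lower with the knockdown under largazole and 1 in DMSO, Mybl2 itself, with medians of -0.10 and -0.14. Of 13 G1 cyclin, kinase and inhibitor genes 11 were tested. With largazole 5 fell and 1 rose in KD cells, and 6 fell and 2 rose in parental cells. With the knockdown 1 was lower and 1 higher under largazole, and 0 were lower and 2 higher in DMSO. The share lower was 9.09% under largazole and 0% in DMSO for these 11 genes, and 28.6% and 7.14% for the 14. Over all genes tested it was 9.67% and 4.01%, and the share higher was 8.12% and 7.11%. Cdk2, the kinase of cyclin E, changed by -1.42 in KD cells and -0.98 in parental cells, and stood at -0.54 ± 0.11 in KD relative to parental cells under largazole (adjusted p = 0.00948). Cdkn1c counts in the largazole libraries were 2.49 and 2.02 CPM for KD and 3.34 and 2.77 CPM for parental cells, against 0.132 and 0.295 CPM for KD and 0.739 and 0.337 CPM for parental cells in the DMSO libraries, so this CDK inhibitor gene rose with largazole from levels of a few counts. Cdkn1a, the p21 gene, was lower with largazole, at -0.48 ± 0.09 in KD cells and -0.25 ± 0.09 in parental cells. With the knockdown Cdkn1a was at 0.28 ± 0.09 under largazole (adjusted p = 0.0567) and was higher in DMSO, at 0.51 ± 0.09 (adjusted p = 0.00524). Cdkn2c, another CDK inhibitor gene, was higher with the knockdown in both conditions, at 0.53 ± 0.08 under largazole (adjusted p = 0.00248) and 0.33 ± 0.08 in DMSO (adjusted p = 0.0317). With largazole Cdkn2c fell, by -0.51 ± 0.08 in KD cells and -0.71 ± 0.08 in parental cells. Cdk4 (-0.94 and -1.10) and Ccnd1 (-0.83 and -0.73) fell with largazole too. The inhibitor genes Cdkn1b, Cdkn1c and Cdkn2d did not pass with the knockdown in either condition.

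Mitosis genes, which peak after S phase, all fell with largazole, 20 of 20 in both genotypes, with medians of -1.37 in KD cells and -1.24 in parental cells. With the knockdown 12 were lower under largazole and 5 in DMSO, with medians of -0.31 and -0.19. The median of the 40 replication genes was -0.68 and -0.23 in the same comparisons. The median difference between the largazole responses was -0.14 for mitosis genes and -0.39 for replication genes, and that gap was not tested.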

How the data were processed

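The deposited values are expected counts per gene symbol, not normalized, as their fractions and differing totals show. Per the labels' protocols, stranded libraries followed polyA selection. The submitters' processing notes name mm10. For the aligner, the counting tool and its strand setting, the sources used here give nothing. The expected counts, as deposited, were rounded to whole numbers. All 8 libraries were fitted together in edgeR 4.0.16 by quasi-likelihood with TMM scaling, giving each group its own mean. The filter filterByExpr (at least 10 counts, total of 15) kept 12517 genes, and tests were two-sided. Adjusted p is by Benjamini-Hochberg, SE was taken as the absolute log2 change over the root of its F statistic, in R 4.3.3. Positions and exon lengths came from GENCODE M21 on GRCm38. The test was checked on simulated counts with known changes. Those counts had the same spread in every group, so the check does not cover the wider spread of the KD largazole group.

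The 40 genes and all lists were chosen with earlier results of these data known. Values in every library are given for the 2 members of each role with the largest change past the threshold in a comparison and at least 5 CPM, and for those against the main direction. They are also given for Gins4, Rpa1, Ccne2 and Cdkn1c, which were chosen after their values were seen. Alternatives were RLE, upper-quartile and no scaling, other filters, DESeq2 1.42.0, limma-voom (limma 3.58.1), only the libraries compared, a replicate block, each library left out, and, added after seeing the data, counts without Rn45s. Each library held at least 13020492 counts, so counting error mattered most for genes at a few CPM.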

Additional observations from a re-analysis of the deposited data

Results flagged for a closer look

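The response to largazole differed between KD and parental cells for Fen1 and Mcm6, by the test of the difference itself (edgeR's quasi-likelihood test). For Fen1, the flap nuclease gene, the difference was -0.85 on the log2 scale (adjusted p = 0.032), and the fall was larger in KD cells. For Mcm6, a gene of the helicase ring, it was -0.61 (adjusted p = 0.0471), in the same direction. Fen1 passed in 11 of 17 alternatives, with adjusted p from 0.000966 to 0.352, and Mcm6 in 8 of 17, with adjusted p from 0.000879 to 0.473. Neither passed without any 1 of the 6 libraries outside KD largazole. The passes include the fits without a KD largazole library, where that group holds 1 library and the spread comes from the other, tighter groups, so these passes are no support. Exons of Fen1 overlap those of Tmem258 and Gm10143 on the opposite strand.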

How the results depend on the processing

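With 2 libraries a group, the calls near the threshold depended on which libraries were in the fit, while the medians moved little. For largazole in KD cells the median of the 40 genes was -1.40 with upper-quartile scaling, -1.43 with library totals only and -1.51 to -1.42 without any 1 library. For largazole in parental cells it was -0.89, -0.91 and -1.01 to -0.97 in that order. For the knockdown under largazole it was -0.75 to -0.67 without any 1 library. The count of genes called there was 25 with only the libraries compared. For the knockdown in DMSO the count of genes called was 20 with only the libraries compared and 0 to 20 without any 1 library, and the median -0.27 to -0.23. For the difference between responses the count was 1 with RLE scaling, library totals only or limma-voom, 10 with no filter or DESeq2, and 0 to 18 without any 1 library, with a median of -0.50 to -0.39. Over all genes, the knockdown in DMSO gave 1392 calls, against 3248 with only the libraries compared and 418 to 3016 without any 1 library. The knockdown under largazole gave 2227, against 957 and 812 to 4121 in the same settings. The difference between responses gave 29, against 114 with no filter, 84 with DESeq2 and 2 to 544 without any 1 library. Among the fits without 1 library, the highest counts over all genes came without a KD largazole library in every comparison. That group had the widest replicate spread, with an SD of log2 differences of 0.359 against 0.194 to 0.218 in the other groups, and a chi-square per degree of freedom of 44.8 against 2.05 to 10.6. With 1 library left it adds no spread to the fit. For the other shifts the cause was not tested.

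Replicates share numbers but the labels do not say that a number marks a shared culture or day. With the replicate number as a block, 12 genes passed for the difference between responses, against 2 (119 of all genes, against 29), and 18 for the knockdown in DMSO, against 13. The correlation of replicate deviations between groups ranged from -0.01 to 0.36.

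Signs turned for values near 0 that did not pass, printed here as log2 changes with the range over the fits without 1 library. For largazole in parental cells these were E2f3 (0.0155 with upper-quartile scaling) and Ccne1 (-0.0178 to 0.227). For the knockdown in DMSO they were Gmnn (-0.246 to 0.00949), Cdc45 (-0.0126 to 0.0495), Rfc3 (-0.147 to 0.0524), E2f2 (-0.0726 to 0.00699) and Ccne1 (-0.112 to 0.125, with -0.000933 under RLE scaling and -0.00106 with DESeq2). For the knockdown under largazole it was Gins4 (-0.363 to 0.0332). For the difference between responses they were Lig1 (-0.20 to 0.0308), E2f1 (-0.0199 to 0.133) and E2f2 (-0.276 to 0.0246).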

Other observations

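Outside the 40 genes, 435 tested genes had an E2F word in a RefSeq window and 9055 had a window without one. Only the 40 genes were left out, so other replication and mitosis genes named above may be among these. With largazole 37.9% of those with a word and 22.6% of those without fell in KD cells, and 35.9% and 22.1% in parental cells. With the knockdown 16.1% and 9.52% were lower under largazole, and 5.29% and 3.94% in DMSO. Within the 40 genes the word did not go with a uniformly larger fall. The 15 genes with a word and the 18 with a window without one had median log2 fold changes of -1.63 and -1.41 with largazole in KD cells, and -0.90 and -1.06 in parental cells. No test was made of these shares and medians.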
